A study of Homo sapiens with 12 samples.

Results

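MDAMB231, written MDA-MB-231 elsewhere, is a human triple-negative breast cancer line with a mesenchymal-like phenotype. The experiment described here is its transcript response to JQ1 over 72 h, read in 4 of the 12 libraries of the series. Libraries were chosen by label: those with 100 nM JQ1, alone or with 10 µM GSK2801, against those without JQ1, which received DMSO (the vehicle) or 10 µM GSK2801. This gives 2 libraries with JQ1 and 2 without, and they form 2 pairs that share no library: JQ1 against DMSO, and JQ1+GSK2801 against GSK2801. All of these cells were kept in DMEM/F12 containing serum, insulin and hydrocortisone. The other lines, used here only to test what differs, were SUM159 with 300 nM JQ1 in the same medium and HCC1806 with 500 nM JQ1 in RPMI 1640 with serum. Line, JQ1 dose and, for HCC1806, medium therefore cannot be told apart. Each line and treatment had 1 library, and nothing in the labels describes a repeated culture.

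BET proteins, such as BRD2 and BRD3, bind acetylated histones through bromodomains and bring the elongation kinase complex P-TEFb to promoters and enhancers. JQ1 occupies those bromodomains and displaces BET proteins from chromatin, and genes served by large enhancers are known to be sensitive to it. GSK2801 binds the bromodomains of BAZ2A and BAZ2B, proteins of chromatin remodelling complexes. In many cancer cells BET inhibition is known to slow proliferation and to raise HEXIM1, an inhibitor of P-TEFb.

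Values are the authors' scaled read estimates, with the same upper quartile in every library. A fold change below is the mean of the log2(value + 1) ratios of both pairs, given with its standard error (SE), and log2 values understate the change of genes with low values. The p-values are from limma with Benjamini-Hochberg adjustment over the 13089 genes with a mean value of at least 10 in the MDAMB231 libraries, and a gene passed at an adjusted p below 0.05. Since no treatment was repeated within a line, the error in this fit is the departure from additive JQ1 and GSK2801 effects within lines, and not the spread between cultures.

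Depth ranged between 31000000 and 46800000 estimated reads in these 4 libraries, and 15743 to 16167 genes had a value above 0. The 10 highest genes took 4.45% to 7.57% of the signal, the largest share being that of JQ1+GSK2801. The label was checked against defining genes. VIM, the mesenchymal filament protein vimentin, was at 117550 with JQ1 and 140590 with JQ1+GSK2801, against 93281 with DMSO and 91480 with GSK2801. The epithelial cadherin gene CDH1 was at 6.39 and 30.0 with JQ1, against 13.6 and 26.0 without it. ESR1, the oestrogen receptor gene, did not exceed 2.74 in any library, and CDKN2A, a tumour suppressor gene known to be deleted in this line, was listed at 0 in all 4. PGR, the progesterone receptor gene, was at 5.48 and 2.67 with JQ1, against 12.1 and 8.12 without it. Not all of these genes were low: the epithelial gene EPCAM was at 173 and 84.0 with JQ1, against 375 and 347 without it. ERBB2, the HER2 gene, was at 2335 and 2285 with JQ1, against 1749 and 1810 without it, above the upper quartile of 1663.93. Of 8 blood cell markers 3 were at 0 in all 4 libraries and 5 above 0 in all, chief among them CD68, a lysosomal protein gene of macrophages, at 4279 and 8767 with JQ1, against 3128 and 3848 without it. Of 6 endothelial markers, ERG was at 0 and KDR was at 391 and 366 with JQ1, against 271 and 309 without it. Of 9 fibroblast and adipocyte markers, FAP and ADIPOQ were at 0 and the rest summed to 72.1 and 70.0 with JQ1, against 80.6 and 60.1 without it.

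A large share of the tested genes differed with JQ1, many of them by little. In the limma fit 7394 of 13089 genes (56.5%) passed the adjusted threshold, 3428 higher with JQ1 (26.2%) and 3966 lower (30.3%). At an unadjusted p below 0.05 there were 8069, where 654 would be found by chance. Tested against a 1.5-fold change, 1980 genes passed the adjusted threshold, 956 higher and 1024 lower. The fold changes of the pairs had the same sign for 11521 genes (88%), with Pearson r of 0.88 and Spearman rho of 0.899 across the 13089 genes, which are not independent replicates. The spread of the log2 ratios was wider in the pair with GSK2801 (SD 0.99) than in the pair without it (SD 0.848). Among passing genes the change was larger in the GSK2801 pair for 2598 of 3428 rises (75.8%) and 2582 of 3966 falls (65.1%). Counts of calls depended on the libraries kept: 4112 genes passed without the GSK2801 library and 4128 without the JQ1+GSK2801 library.

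A gene was called moved when it differed at least 2-fold in the same direction in both pairs with a mean value of at least 50. By this rule 748 passing genes moved up (5.71% of those tested) and 703 moved down (5.37%), and 0 genes moved 2-fold in opposite directions. At the edge of the mean-value limit, SUSD2 (mean 50.2) was inside and NOTCH3 (mean 49.9) outside. At the edge of the ratio limit, PPP1R12B (smaller log2 ratio 1.0002) was inside and DAXX (smaller log2 ratio -0.99973) outside.

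**Figure D1:**
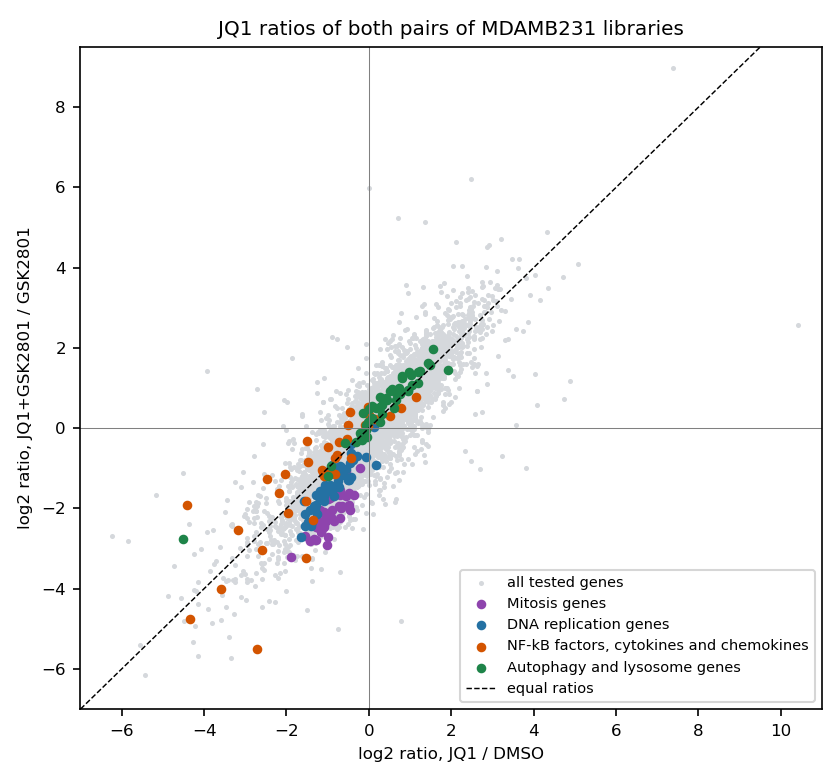
Log2 ratio of JQ1 to DMSO (x axis) against log2 ratio of JQ1+GSK2801 to GSK2801 (y axis) for the 13089 tested genes, with 4 gene lists coloured and equality as a dashed line. All 45 mitosis genes lie below the equality line, and 30 of the 47 autophagy and lysosome genes were called higher.

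Cell division genes gave the most uniform response. Of 45 mitosis genes tested, 45 fell and 0 rose (100% against 30.3% of all tested genes), with a median log2 fold change of -1.59 against -0.0485 over all tested genes, and of 45 DNA replication genes 42 fell and 0 rose (median -1.2). Each of the 45 mitosis genes was lower with JQ1 in both pairs, and each was lower still in the pair with GSK2801, where the median was -2.20 against -1.03 in the pair without. For the replication genes the medians were -1.46 with GSK2801 and -0.937 without. With 1 library per treatment that gap between pairs has no test of its own. In these bulk libraries, fewer cycling cells and less RNA per cycling cell cannot be told apart.

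MKI67 encodes the proliferation antigen Ki-67. It was at 7290 with JQ1 and 1936 with JQ1+GSK2801, against 14857 with DMSO and 14582 with GSK2801, a fall of both JQ1 libraries below both others (log2 fold change -1.97 ± 0.36, limma adjusted p = 0.0022). The mitotic cyclins followed the same order. CCNB1, the cyclin that drives entry into mitosis, was at 3867 with JQ1 and 1676 with JQ1+GSK2801, against 8028 with DMSO and 8077 with GSK2801 (log2 fold change -1.66 ± 0.23, limma adjusted p = 0.00064). PLK1, a kinase needed for spindle assembly, was at 1733 and 634 with JQ1, against 4380 and 4325 without it (-2.05 ± 0.27, limma adjusted p = 0.00044). The values without JQ1 were nearly equal for these genes, whereas JQ1+GSK2801 was well below JQ1.

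The lowest ratio in the mitosis list belonged to SPC25, a kinetochore subunit, at 174 with JQ1 and 63.4 with JQ1+GSK2801, against 651 with DMSO and 598 with GSK2801 (-2.56 ± 0.27). The smallest fall was that of CENPI, a centromere protein (-0.60 ± 0.17). AURKA and AURKB, the Aurora kinases of spindle and chromosome passenger complex, both fell (-2.12 ± 0.21 and -1.87 ± 0.23). FOXM1, a transcription factor of the late cell cycle genes, was at 2855 and 1094 with JQ1, against 6470 and 5648 without it (-1.77 ± 0.23). TOP2A, the topoisomerase that untangles replicated DNA, was at 13080 and 5228 with JQ1, against 20955 and 20638 without it.

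Among replication genes the helicase subunits MCM2 to MCM7 all fell, between -0.79 ± 0.12 for MCM4 and -1.66 ± 0.17 for MCM5. CDC45, which joins the MCM ring in the active helicase, had the largest fall of the list: 430 with JQ1 and 197 with JQ1+GSK2801, against 1341 with DMSO and 1307 with GSK2801 (-2.18 ± 0.23). Its libraries with and without JQ1 did not overlap, and JQ1+GSK2801 was the lowest. RRM2, which supplies deoxynucleotides, was at 5485 and 3313 with JQ1, against 11618 and 11559 without it (-1.44 ± 0.16). The sliding clamp gene PCNA changed less, at 3738 and 3130 with JQ1, against 6030 and 6012 without it (-0.82 ± 0.10). Members that did not pass were POLE, TK1 and TIMELESS. TK1, the thymidine salvage kinase, was at 3643 with JQ1 and 1806 with JQ1+GSK2801, against 3252 with DMSO and 3389 with GSK2801, so that it was below its partner in the GSK2801 pair alone.

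The promoters of these lists are shown because mitosis and replication genes are known to carry different control elements. RefSeq start regions (GRCh38.p14, 250 bases before to 50 after the start) were matched by symbol for 39 mitosis genes and 40 replication genes. The CHR element, searched as TTTGAA or TTTAAA on both strands, was present in 82.1% of the mitosis promoters, 7.5% of the replication promoters, 24.3% of all 27305 promoters and 15.7% of the 10857 promoters of tested genes. CCAAT, the box bound by NF-Y, was present on either strand in 76.9% of mitosis promoters and also in 57.5% of replication promoters. Its share was 36.9% in promoters of tested genes and 35.7% in all promoters. Both elements together were present in 66.7% of mitosis promoters and 9.49% of all promoters. E2F sites, searched as TTTGGCGC, TTTCCCGC, TTCCCGCC or TTGGCGCC on both strands with overlaps merged, were present in 57.5% of replication promoters, 15.4% of mitosis promoters and 5.37% of all promoters. In promoters of tested genes the E2F share was 8.56%. These matches describe the letters and are not binding sites measured here. The promoters of the 748 genes moved up held CHR in 11.1% of the 605 that matched, and those of the 703 moved down in 25% of 557.

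The next 4 sequences are the 120 bases before the start of mitosis genes, chosen because they hold both elements, with CHR and CCAAT letters (either strand) in capitals. In MKI67 the last CHR and CCAAT matches share letters and form one run.
MKI67 (chr10:128126424-128126543, strand -): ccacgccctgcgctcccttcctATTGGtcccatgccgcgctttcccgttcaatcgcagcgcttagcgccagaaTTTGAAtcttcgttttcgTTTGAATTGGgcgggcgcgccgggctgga
CCNB1 (chr5:69167030-69167149, strand +): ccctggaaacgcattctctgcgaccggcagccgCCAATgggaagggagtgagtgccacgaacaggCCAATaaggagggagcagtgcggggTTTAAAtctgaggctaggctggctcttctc
CCNB2 (chr15:59105026-59105145, strand +): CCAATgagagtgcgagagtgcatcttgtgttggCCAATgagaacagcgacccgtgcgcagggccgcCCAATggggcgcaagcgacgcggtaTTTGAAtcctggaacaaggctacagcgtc
PLK1 (chr16:23678769-23678888, strand +): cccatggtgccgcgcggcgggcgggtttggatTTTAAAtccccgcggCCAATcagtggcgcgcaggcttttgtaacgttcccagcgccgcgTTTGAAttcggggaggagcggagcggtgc
The next 4 are the 120 bases before the start of replication genes, chosen because they hold an E2F match, with those letters (either strand) in capitals.
MCM3 (chr6:52284743-52284862, strand -): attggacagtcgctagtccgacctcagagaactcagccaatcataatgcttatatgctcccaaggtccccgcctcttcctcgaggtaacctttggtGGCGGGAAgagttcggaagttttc
MCM6 (chr2:135876444-135876563, strand -): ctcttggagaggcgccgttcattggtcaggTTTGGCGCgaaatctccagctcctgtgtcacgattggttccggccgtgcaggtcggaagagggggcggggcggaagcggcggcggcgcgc
PCNA (chr20:5126623-5126742, strand -): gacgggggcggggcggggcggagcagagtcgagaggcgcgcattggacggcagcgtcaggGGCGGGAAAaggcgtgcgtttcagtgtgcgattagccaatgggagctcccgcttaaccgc
CDT1 (chr16:88803669-88803788, strand +): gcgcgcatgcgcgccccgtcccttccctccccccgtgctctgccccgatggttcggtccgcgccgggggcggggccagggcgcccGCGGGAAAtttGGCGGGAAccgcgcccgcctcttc

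The cell cycle response was tested against the other lines. The median fold change of the mitosis genes was -1.59 in MDAMB231, -0.202 in SUM159 and -0.0485 in HCC1806. In the interaction contrast of the limma fit, 44 of 45 mitosis genes had a more negative JQ1 effect in MDAMB231 than in the mean of SUM159 and HCC1806, where 14.9% of all tested genes did, and 39 differed from each line separately. The 1 exception was ASPM, a spindle pole protein gene (difference -0.85, limma adjusted p = 0.094). Of the replication genes, 42 of 45 were more negative than in the mean of the other lines and 37 than in each line. Over all 13089 tested genes, 922 were more negative than in each line. Without the GSK2801 library 41 mitosis and 38 replication genes still fell, and 32 and 29 were more negative than in the other lines. Without the JQ1+GSK2801 library the counts were 41 and 38 lower, and 32 and 31 more negative. MKI67 itself was at 11278 and 13064 with JQ1 in SUM159, against 19668 and 15738 without it, and at 35693 and 33186 with JQ1 in HCC1806, against 43102 and 46182 without it. Its difference between lines (-1.51, limma adjusted p = 0.0317) was -0.57 without the GSK2801 or the JQ1+GSK2801 library (limma adjusted p = 0.151 and 0.153). All of these differences are at a lower JQ1 dose in MDAMB231 than in the other lines.

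**Figure D2:**
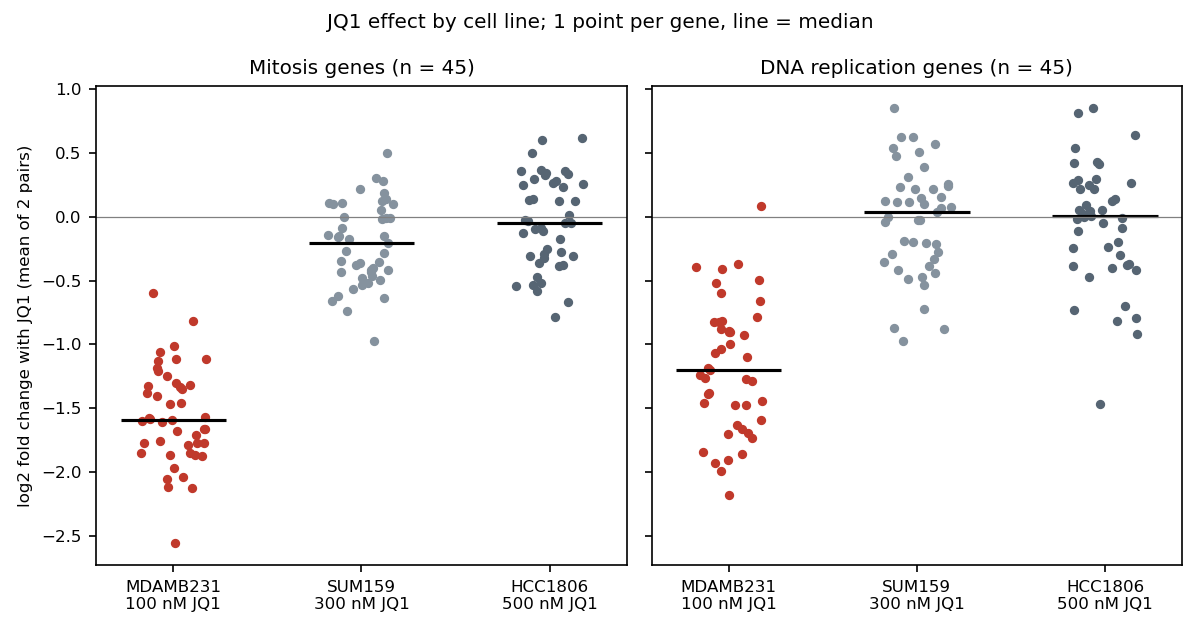
Log2 fold change with JQ1, as the mean of 2 pairs, for each mitosis gene (left panel) and DNA replication gene (right panel) in MDAMB231, SUM159 and HCC1806. Horizontal bars are medians: -1.59, -0.202 and -0.0485 for mitosis genes in MDAMB231, SUM159 and HCC1806.

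Of 24 tested regulators of G1, 6 rose and 12 fell (25% and 50%, against 26.2% and 30.3% of all tested genes). CDKN1A, encoding the CDK inhibitor p21, was at 6546 with JQ1 and 8086 with JQ1+GSK2801, against 1552 with DMSO and 1789 with GSK2801 (log2 fold change 2.13 ± 0.09, limma adjusted p = 2e-05). CCND1, encoding cyclin D1, also rose, at 49615 and 57188 with JQ1, against 19634 and 18117 without it (2.82-fold). Both genes had every JQ1 value above every value without JQ1. The cyclin E genes CCNE1 and CCNE2 fell (-0.57 ± 0.17 and -1.05 ± 0.16), as did the S-phase factors E2F1 (-0.84 ± 0.16) and E2F2 (-2.51 ± 0.27). E2F8, an atypical E2F repressor, was at 198 and 53.4 with JQ1, against 881 and 661 without it (-2.88 ± 0.33).

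The BET and P-TEFb list carries known transcript responses to JQ1. Of 16 tested, 6 rose and 4 fell (37.5% and 25%, against 26.2% and 30.3% of all tested genes). HEXIM1 was at 6483 with JQ1 and 8933 with JQ1+GSK2801, against 3018 with DMSO and 3119 with GSK2801 (1.31 ± 0.15, limma adjusted p = 0.00023). SERPINI1, encoding neuroserpin, rose by 1.91 ± 0.23, and BRD2 by 0.85 ± 0.09. HEXIM1 had a difference of -0.20 from the other lines, which did not pass (limma adjusted p = 0.42).

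Ranked by the smaller of its 2 pair ratios, the leading rise was HIST2H4B, an H4 histone gene, at 165 with JQ1 and 504 with JQ1+GSK2801, while it was listed at 0 in effect with DMSO and GSK2801. Its near-identical copy HIST2H4A can trade reads with it, so the pair was summed: 385 with JQ1 and 1393 with JQ1+GSK2801, against 84.4 with DMSO and 119 with GSK2801. No fold is given for HIST2H4B, since its size depends on the pseudocount. The difference from the other lines passed with a pseudocount of 1 and not with one of 10 (1.05, limma adjusted p = 0.112). The sum in SUM159 was 2157 and 3915 with JQ1, against 195 and 320 without it, and in HCC1806 2106 and 3673 with JQ1, against 88.7 and 117 without it. Of 25 polyadenylated histone and linker histone genes tested, 14 rose and 3 fell (56% and 12%, against 26.2% and 30.3% of all tested genes; median 0.60), where the medians were 1.33 in SUM159 and 2.62 in HCC1806. HIST1H2BD, an H2B gene, was at 1400 with JQ1 and 4324 with JQ1+GSK2801, against 195 with DMSO and 267 with GSK2801 (3.43 ± 0.39). The histone variant H2AFZ instead fell, at 7229 and 5881 with JQ1, against 11654 and 11441 without it (-0.82 ± 0.09). For 14 of these genes the JQ1 effect was more negative in MDAMB231 than in the mean of the other lines, as it was for 14.9% of all tested genes.

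UNC5B, another of the leading rises, is a receptor of the axon guidance cue netrin-1 and lies at chr10:71212570-71302864 (hg38). It was at 76.7 with JQ1 and 250 with JQ1+GSK2801, against 4.52 with DMSO and 17.9 with GSK2801, a 13.7-fold rise (log2 fold change 3.77 ± 0.24, limma adjusted p = 4.5e-05). JQ1+GSK2801 was the highest and DMSO the lowest, and the libraries with and without JQ1 did not overlap. The rise was larger than in the mean of the other lines (difference 2.62, limma adjusted p = 0.0014), where the gene started higher: in SUM159 at 253 and 749 with JQ1, against 224 and 292 without it, and in HCC1806 at 6593 and 9020 with JQ1, against 2348 and 2979 without it. The annotated antisense gene UNC5B-AS1 overlaps it. The labels name both a KAPA stranded and an Illumina TruSeq kit, so whether counting used strand is not settled and reads of the 2 strands may not be separated.

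Of 9 tested members of the netrin, DCC and UNC5 list, 5 rose and 1 fell (55.6% and 11.1%, against 26.2% and 30.3% of all tested genes). NEO1, encoding the netrin and repulsive guidance receptor neogenin, rose by 1.05 ± 0.13, and the ligand gene NTN4 by 0.62 ± 0.15. DSCAM, an adhesion molecule gene, fell to 1.83 and 0.67 with JQ1, against 18.1 and 24.4 without it. In the wider axon guidance list 20 of 45 rose and 11 fell (44.4% and 24.4%). PLXNA3, a semaphorin receptor subunit, was at 2614 and 4019 with JQ1, against 583 and 642 without it (5.29-fold). The semaphorin ligand genes went both ways, with SEMA6C at 2.92 ± 0.24 and SEMA3D at -2.79 ± 0.20.

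Neural adhesion and cytoskeleton genes rose in 14 of 22 tests and fell in 1 (63.6% higher against 26.2% of all tested genes; median 1.26). L1CAM, a neural adhesion molecule gene at chrX:153861514-153886174 (hg38), was at 3049 with JQ1 and 3845 with JQ1+GSK2801, against 794 with DMSO and 733 with GSK2801 (2.17 ± 0.28, limma adjusted p = 0.00041). Both JQ1 libraries were above both others. The rise was smaller than in the other lines (difference -2.01, limma adjusted p = 0.0043), a call that was lost when any of the 4 MDAMB231 libraries was left out (limma adjusted p 0.0515 to 0.0591). In SUM159 L1CAM was at 34.0 and 69.9 with JQ1, against 1.17 and 7.0 without it. In HCC1806 it was at 4215 and 2855 with JQ1, against 111 and 142 without it. L1CAM overlaps the annotated protein-coding gene U52112.1 on its own strand, so reads of this locus may not be separated.

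TUBB3, the neuronal beta-tubulin gene, was at 11912 with JQ1 and 21104 with JQ1+GSK2801, against 2042 with DMSO and 2386 with GSK2801 (2.84 ± 0.17). The microtubule-associated protein genes MAP2 (2.41 ± 0.13), MAPT (1.87 ± 0.21) and MAP1A (3.10 ± 0.29) rose too, and ANK2, an ankyrin gene, fell (-1.06 ± 0.37). DPYSL3, which encodes a growth cone protein, was at 424 and 509 with JQ1, against 48.2 and 60.9 without it (3.08 ± 0.22), and its rise was smaller than in the other lines (difference -2.58).

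**Figure D3:**
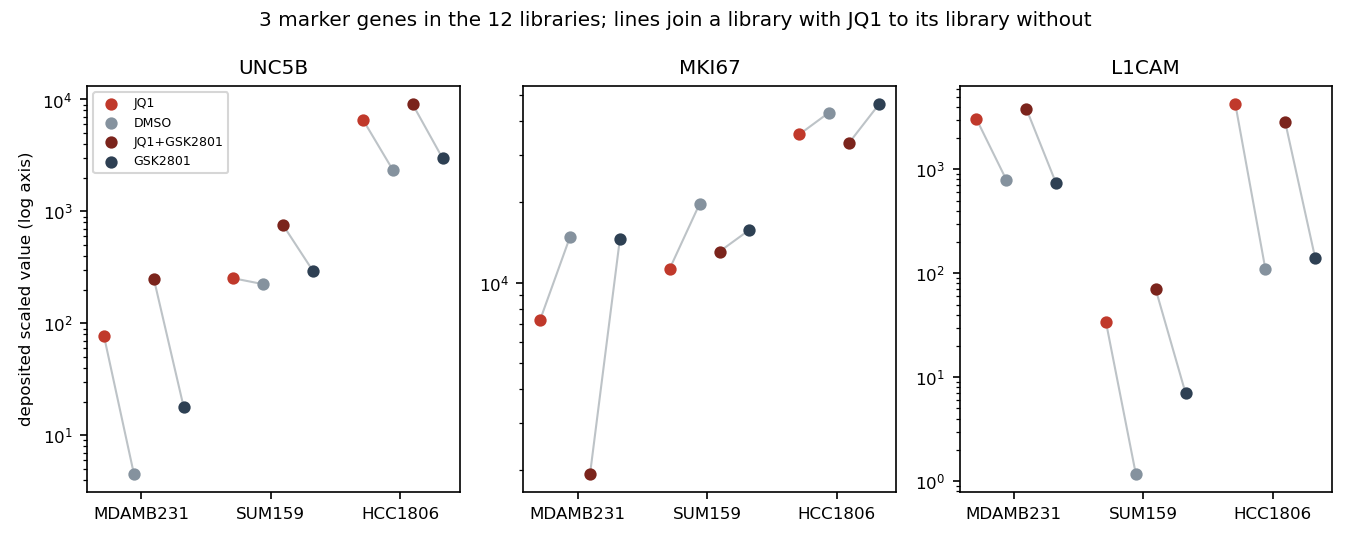
Deposited scaled value (log axis) of UNC5B, MKI67 and L1CAM in the 12 libraries; each grey line joins a library with JQ1 (left) to the library of the same line without it (right). UNC5B and L1CAM were higher with JQ1 in each pair, and MKI67 lower, with its lowest value (1936) in MDAMB231 with JQ1+GSK2801.

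The 15 largest rises were ranked by the smaller of the 2 pair ratios. Among them EFR3B, a gene for a membrane scaffold of a lipid kinase, was at 981 with JQ1 and 1191 with JQ1+GSK2801, against 27.9 with DMSO and 69.0 with GSK2801 (24.1-fold, log2 fold change 4.59 ± 0.45). BSN, a presynaptic scaffold gene, rose 15.2-fold, and BAIAP3, which encodes a C2-domain protein of vesicle release, 15.2-fold. The synaptic adhesion gene CADM2 rose 12.8-fold and LYRM9 19-fold, and both were under 30 without JQ1. TXNIP, an inhibitor of thioredoxin and of glucose uptake, differed at a much higher level: 46900 with JQ1 and 46043 with JQ1+GSK2801, against 4295 with DMSO and 4964 with GSK2801 (10.1-fold, 3.33 ± 0.16, limma adjusted p = 2.3e-05). Its rise was larger than in the other lines (difference 1.52).

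AQP3, a water and glycerol channel gene, was at 519 and 870 with JQ1, against 55.8 and 77.1 without it (log2 fold change 3.34 ± 0.18). It rose in SUM159 too, by less (2.27), and went the opposite way in HCC1806 (-1.54). CLU, encoding the secreted chaperone clusterin, rose 9.86-fold, to 3913 and 5795 with JQ1, against 444 and 524 without it. The others of the 15 were TPPP, a tubulin polymerisation gene (10.1-fold), VASN, a TGF-beta binding membrane protein gene (9.74-fold), and SMIM14 (8.79-fold). TPPP overlaps CEP72, VASN overlaps CORO7, BAIAP3 overlaps TSR3 and HIST2H4B overlaps HIST2H3A on the opposite strand. Their values carry the strand limit given for UNC5B. LYRM9 overlaps the protein-coding gene AC005697.1 on its own strand, so reads of that locus may not be separated. For all 15 the lowest JQ1 value was above the highest value without JQ1, a gap that the 2-fold rule in part sets.

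**Figure D4:**
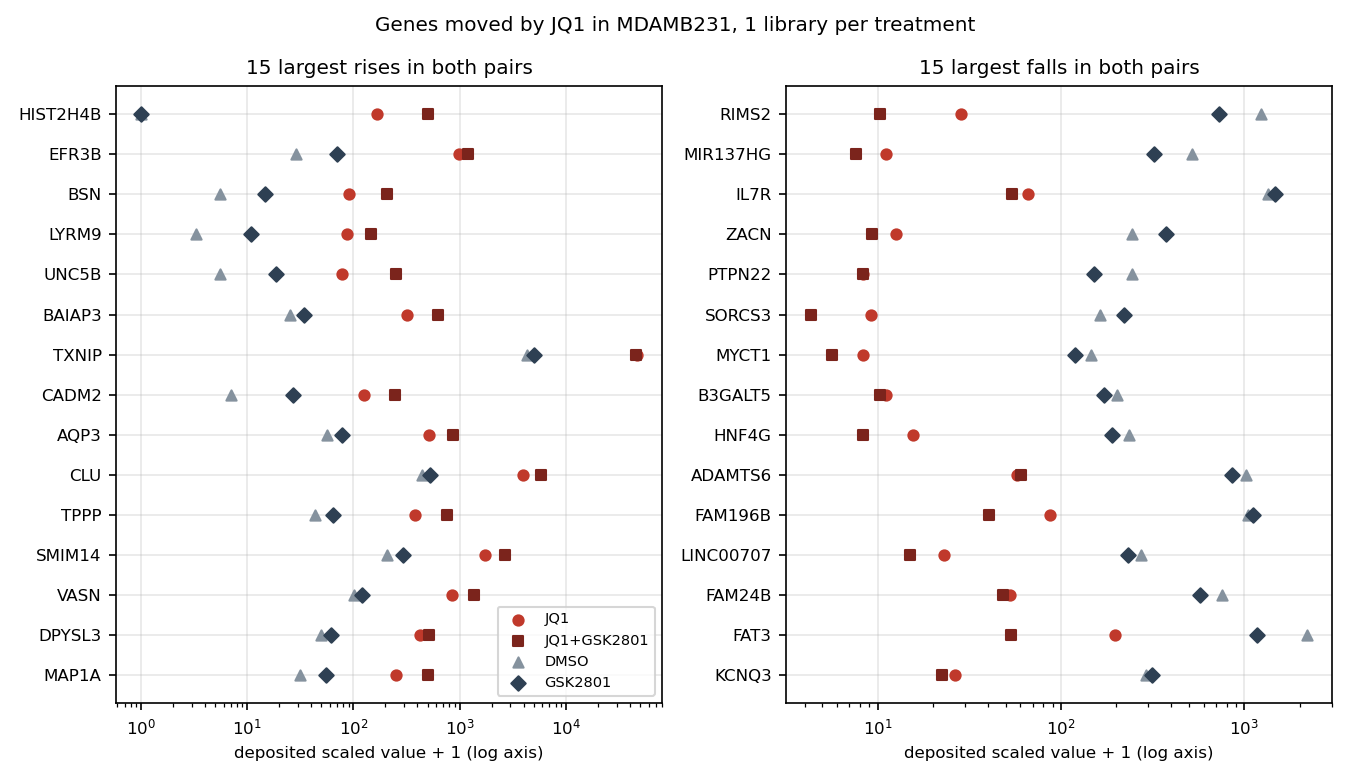
Deposited scaled value plus 1 (log axis) of the 15 largest rises (left) and 15 largest falls (right) in MDAMB231, 1 point per library, coloured by treatment. Red points (with JQ1) and grey or dark blue points (without) do not overlap for any of these genes. The 2-fold rule that chose the rises and falls in part sets this gap. HIST2H4B is listed at 0 in effect without JQ1.

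Among the 15 largest falls, RIMS2, another presynaptic scaffold gene, was at 27.4 with JQ1 and 9.34 with JQ1+GSK2801, against 1230 with DMSO and 730 with GSK2801 (55.4-fold lower, log2 fold change -5.79 ± 0.55, limma adjusted p = 0.00012). MIR137HG, the host transcript of the microRNA miR-137, was at 10.0 and 6.67 with JQ1, against 520 and 322 without it (44.5-fold lower). Part of MIR137HG overlaps DPYD on the same strand, and RIMS2 overlaps the protein-coding gene AC012213.5 on the opposite strand. IL7R, the interleukin-7 receptor gene, was at 64.8 and 53.4 with JQ1, against 1338 and 1465 without it (-4.55 ± 0.30). The fall was smaller than in the mean of the other lines (difference 2.45), but the difference from SUM159 alone did not pass (1.26, limma adjusted p = 0.054).

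Further falls were in FAT3, an atypical cadherin gene, at 197 and 52.7 with JQ1, against 2200 and 1175 without it, and in ADAMTS6, a secreted metalloprotease gene, at 56.6 and 59.4 with JQ1, against 1018 and 853 without it. PTPN22, a phosphatase known from lymphocytes, fell 23.1-fold, SORCS3, a sortilin family receptor gene, 30.2-fold, and KCNQ3, a potassium channel gene, 12.4-fold. FAM196B (18.2-fold), HNF4G, a nuclear receptor gene (18.5-fold), B3GALT5, a galactosyltransferase gene (17.4-fold), MYCT1 (19.2-fold) and LINC00707 (13.5-fold) ranked beside them. ZACN, a zinc-activated channel gene, fell 27.9-fold but overlaps EXOC7 and SRP68 on the other strand and GALR2 on its own, and FAM24B (13.1-fold) overlaps CUZD1 on its own strand, so reads of these loci may not be separated.

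Of 38 tested NF-kB factors, cytokines and chemokines, 19 fell (50% against 30.3% of all tested genes), 4 rose (10.5% against 26.2%) and 15 did not pass. The median was -0.946. In SUM159 23 of the 38 were lower, where 28.9% of all tested genes were, and in HCC1806 14 of the 38, where 26.7% were. IL6 was at 32.9 with JQ1 and 4.00 with JQ1+GSK2801, against 223 with DMSO and 225 with GSK2801 (-4.11 ± 0.63, limma adjusted p = 0.00098). CXCL8, a neutrophil chemokine gene, was at 102 and 122 with JQ1, against 571 and 295 without it (-1.87 ± 0.41). CSF2, encoding GM-CSF, was at 5.48 and 2.67 with JQ1, against 76.9 and 58.5 without it. TNFAIP3, an NF-kB feedback gene, fell (-1.91 ± 0.17), as did NFKB1 (-1.10 ± 0.09). Receptor genes of the list went both ways. IL6ST (0.82 ± 0.10), LIFR (0.65 ± 0.10) and OSMR (0.41 ± 0.10) rose, while IL7R had the largest fall of the list (-4.55 ± 0.30).

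In the type I interferon list 9 of 39 genes rose and 14 fell (23.1% and 35.9%), near the 26.2% and 30.3% of all tested genes. The antiviral genes OAS3 (-2.28 ± 0.24) and OASL (-2.49 ± 0.43) fell, while IFI6 (1.80 ± 0.28) and the factor IRF7 (1.48 ± 0.14) rose. Of 25 antigen presentation genes, 9 rose and 6 fell (36% and 24%). CD274, encoding the checkpoint ligand PD-L1, was at 332 with JQ1 and 170 with JQ1+GSK2801, against 972 with DMSO and 825 with GSK2801 (-1.91 ± 0.22, limma adjusted p = 0.00029). The class I gene HLA-E was at 6638 and 9704 with JQ1, against 3485 and 3523 without it (1.20 ± 0.13).

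Of 28 tested genes tied to organ metastasis of MDAMB231 sublines, 12 rose and 9 fell (42.9% and 32.1%, against 26.2% and 30.3% of all tested genes). CTGF, a matricellular protein gene, was at 55417 with JQ1 and 78322 with JQ1+GSK2801, against 11558 with DMSO and 10812 with GSK2801 (2.56 ± 0.16), and the rise exceeded that of the other lines (difference 2.53, limma adjusted p = 0.0005). ANGPTL4, an adipokine gene, rose by 2.06 ± 0.19. IL11, a bone resorption cytokine gene, was at 121 and 78.0 with JQ1, against 740 and 642 without it (-2.81 ± 0.40). KYNU, an enzyme gene of tryptophan breakdown, was at 55.7 and 18.7 with JQ1, against 303 and 387 without it (-3.36 ± 0.46). IL11 did not pass in SUM159 (-0.31) or HCC1806 (0.41), and its difference from them did (-2.86, limma adjusted p = 0.0046). EREG, encoding the EGF receptor ligand epiregulin, was at 4954 and 3436 with JQ1, against 12418 and 14296 without it (-1.69 ± 0.15).

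Mesenchymal state genes rose in 13 of 31 tests and fell in 5 (41.9% and 16.1%, against 26.2% and 30.3% of all tested genes). ITGA3, an integrin subunit gene, was at 57672 and 61866 with JQ1, against 19587 and 24223 without it (1.46 ± 0.10). CDH2, the N-cadherin gene, was low throughout, at 4.65 and 5.38 with JQ1, against 17.3 and 14.6 without it. Of 30 matrix protease, plasminogen and hyaluronan genes, 10 rose and 5 fell (33.3% and 16.7%). TIMP2, a metalloprotease inhibitor gene, was at 26849 and 35212 with JQ1, against 9041 and 8739 without it (1.79 ± 0.11). HAS2, which makes hyaluronan, was at 117 and 44.5 with JQ1, against 1013 and 571 without it (-3.38 ± 0.22).

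In the ERK list 10 of 38 genes rose and 11 fell, shares (26.3% and 28.9%) near the 26.2% and 30.3% of all tested genes. DUSP6, the phosphatase that switches off ERK, was at 20309 with JQ1 and 20963 with JQ1+GSK2801, against 4394 with DMSO and 4409 with GSK2801 (2.23 ± 0.14), and it did not rise in the other lines (0.26 in SUM159, which did not pass, and -0.52 in HCC1806). Its difference passed (2.36, limma adjusted p = 0.00049). MYC, a frequent target of BET inhibition in blood cancers, was at 6289 and 8432 with JQ1, against 6825 and 7916 without it, and did not pass (-0.01 ± 0.11). In the TGF-beta and BMP list 16 of 40 rose and 8 fell (40% and 20%), with the BMP target genes ID1 (1.55 ± 0.08) and ID2 (2.35 ± 0.26) higher and the activin antagonist FST lower (-2.42 ± 0.29). In the YAP and TEAD list 8 of 29 rose and 7 fell (27.6% and 24.1%), and among p53 targets 8 of 26 rose and 8 fell (30.8% each), near the shares of all tested genes. TP53INP1, which acts in autophagy and cell death, led the p53 list at 996 and 1174 with JQ1, against 124 and 119 without it (3.14 ± 0.17). In this list MDM2 fell (-1.01 ± 0.12).

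Ribosome biogenesis genes fell almost without exception, 54 of 61 with 0 higher (88.5% lower against 30.3% of all tested genes; median -0.898, against -0.307 in SUM159 and -0.591 in HCC1806). Unlike for mitosis genes, the fall was no deeper with GSK2801: the pair medians were -0.804 with it and -0.906 without it. FBL, the nucleolar methyltransferase gene, was at 3141 with JQ1 and 3187 with JQ1+GSK2801, against 6294 with DMSO and 6568 with GSK2801 (-1.02 ± 0.07). NPM1, encoding nucleophosmin, was at 37606 and 43486 with JQ1, against 64909 and 72793 without it (-0.77 ± 0.11). The JQ1 effect was more negative than in the mean of the other lines for 30 of the 61, as it was for 14.9% of all tested genes.

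Autophagy and lysosome genes were mostly higher, 30 of 47 with 4 lower (63.8% higher against 26.2% of all tested genes). GRN, encoding the lysosomal protein progranulin, was at 4423 with JQ1 and 6203 with JQ1+GSK2801, against 1567 with DMSO and 2091 with GSK2801 (1.53 ± 0.09). ULK1, encoding the kinase that starts autophagy, rose by 1.69 ± 0.13, MAP1LC3B and GABARAPL1, genes of autophagosome membrane proteins, rose (1.19 ± 0.12 and 1.53 ± 0.13), and CTSS, a lysosomal protease gene, fell (-3.63 ± 0.56). Targets of NRF2 and of the aryl hydrocarbon receptor were also mostly higher, 18 of 30 with 4 lower (60% and 13.3%). The ferritin genes reached the highest levels: FTL was at 112010 with JQ1 and 263410 with JQ1+GSK2801, against 38095 with DMSO and 46520 with GSK2801 (2.03 ± 0.20), and FTH1 at 66289 and 177160 with JQ1, against 25442 and 33812 without it. Both ferritin genes have many pseudogenes, and JQ1+GSK2801 was also the library with the largest share of signal in its 10 highest genes, whose part in these values was not tested.

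In the remaining metabolic lists, hypoxia and glycolysis genes rose in 16 of 36 tests and fell in 4 (44.4% and 11.1%, against 26.2% and 30.3% of all tested genes), with NDRG1 at 3527 and 5622 with JQ1, against 907 and 1202 without it (2.09 ± 0.11), and VEGFA lower (-1.66 ± 0.18). Cholesterol and fatty acid synthesis genes rose in 14 of 37 tests and fell in 5 (37.8% and 13.5%), led by the sterol reductase gene TM7SF2 (3.15 ± 0.26). ATF4 and endoplasmic reticulum stress genes fell in 15 of 35 tests and rose in 8 (42.9% and 22.9%). ATF4 itself was at 3017 and 1531 with JQ1, against 6223 and 7209 without it (-1.64 ± 0.25). Among nuclear-encoded respiratory chain genes 7 of 52 rose, 11 fell (13.5% and 21.2%) and 34 did not pass. Among apoptosis regulators 16 of 40 fell and 10 rose (40% and 25%): BCL2, the survival gene, fell (-1.07 ± 0.15), BCL2L1, encoding BCL-XL, rose (0.77 ± 0.09), and the BH3-only gene BMF rose at low values (39.3 and 49.4 with JQ1, against 12.0 and 4.87 without it).

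Of 27 tested epithelial genes 10 rose and 5 fell (37% and 18.5%, against 26.2% and 30.3% of all tested genes), and the summed value of the 41 found was 125020 and 102440 with JQ1, against 81088 and 75475 without it. LAMA3, a laminin chain gene, was at 2235 and 2516 with JQ1, against 485 and 542 without it (2.21 ± 0.08). Of 12 luminal markers 4 rose and 2 fell (33.3% and 16.7%). Of the blood, endothelial and fibroblast markers only 2, 1 and 2 were high enough to test, and 1 blood marker rose. The summed blood marker value was 4304 and 8789 with JQ1, against 3143 and 3868 without it, and almost all of it was CD68. The part of these markers in the results was not tested.

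**Figure D5:**
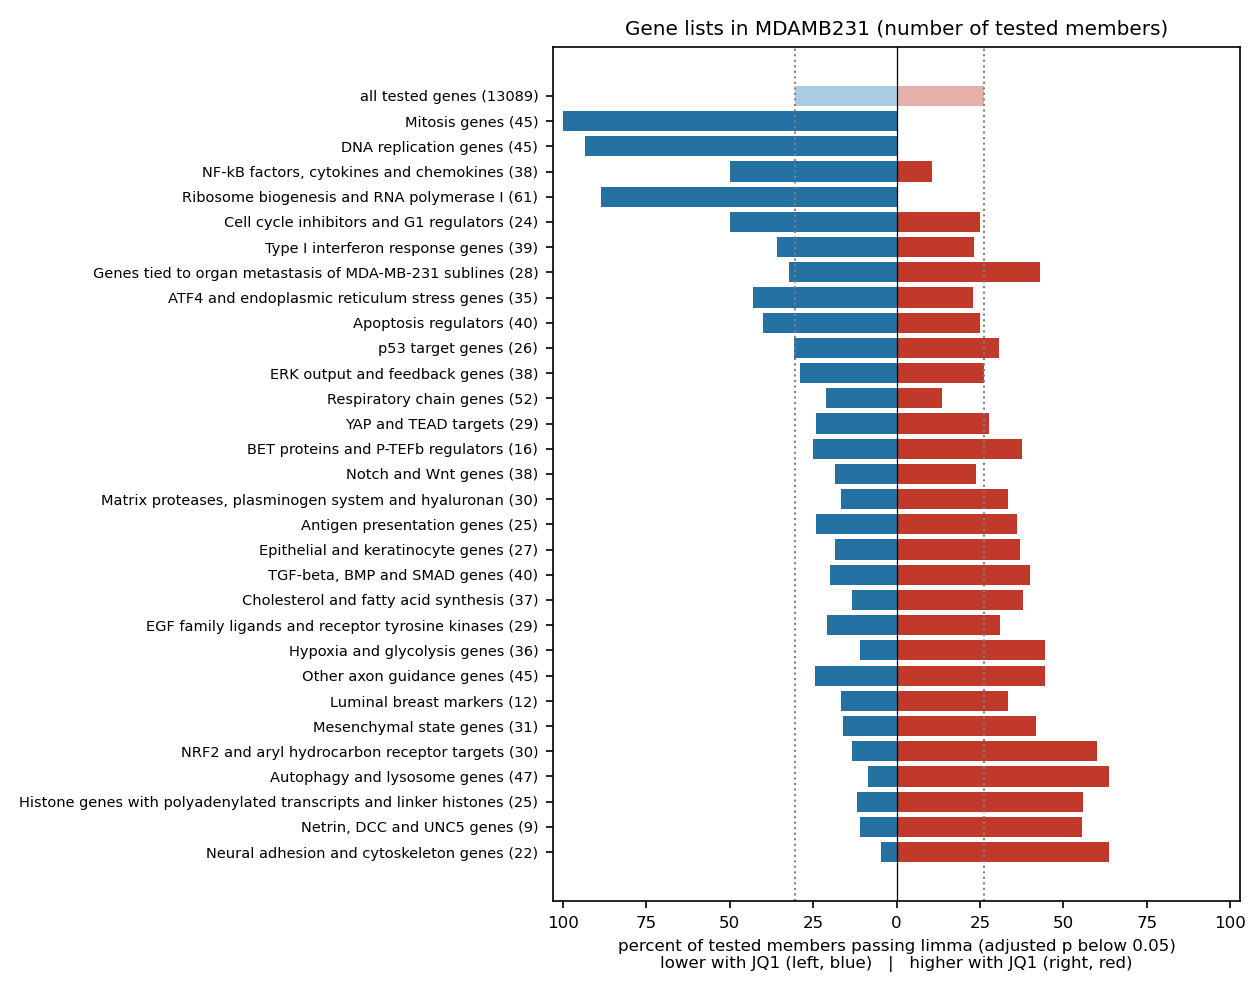
Share of tested members of each gene list with 5 or more such members that passed limma at an adjusted p below 0.05, lower with JQ1 to the left and higher to the right; dotted lines mark the shares of all tested genes, 30.3% and 26.2%. Mitosis, replication and ribosome biogenesis lists have 0 members to the right.

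To ask what set MDAMB231 apart, its JQ1 effect was compared with the mean of SUM159 and HCC1806 for every tested gene. It differed for 4318 genes (33%), 2364 more positive (18.1%) and 1954 more negative (14.9%). Of the 1451 genes that moved and passed in MDAMB231, 908 differed from the mean of the other lines and 552 from each line separately in the same direction; of these 312 moved up and 240 moved down. Of those 552, 42 that moved up and 22 that moved down had fold changes of the opposite sign in both other lines. Only the sign was used for these counts, so the fold changes in the other lines need not have passed. The matching share of all tested genes was not computed, so the counts have no background to be read against. Over all 13089 tested genes, 1091 were more positive and 922 more negative than in each line. The 1451 genes were chosen by the same JQ1 effect that enters the difference, so a high share of differences among them follows in part from that choice. Genes were also kept by their mean value in MDAMB231 alone, and some were hardly detected in the other lines. A fall with JQ1 could not be seen there, so the counts of more negative differences include genes for which the comparison cannot decide. How many such genes there were was not tested.

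Among the 10 most positive differences was CPA4, a carboxypeptidase gene, at 1039 with JQ1 and 1793 with JQ1+GSK2801, against 208 with DMSO and 314 with GSK2801 (2.41 ± 0.26). It fell in SUM159 (-0.73) and HCC1806 (-0.85), and the difference was 3.20 (limma adjusted p = 0.00087). MUC1, a mucin gene, was at 133 and 91.8 with JQ1, against 15.8 and 16.2 without it, and fell in SUM159 (-1.58). It overlaps the annotated protein-coding gene AL713999.1 on its own strand. SUSD2, a membrane protein gene, was at 113 and 59.4 with JQ1, against 12.1 and 16.2 without it, and fell in SUM159 (-2.61).

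ACSL5, a fatty acid activating enzyme gene, fell in MDAMB231, at 1120 and 754 with JQ1, against 2639 and 2229 without it (-1.40 ± 0.16), but fell by 4.73 on the log2 scale in SUM159 and by 4.48 in HCC1806. It overlaps ZDHHC6 on the opposite strand. NDRG4 rose in MDAMB231 (2.05 ± 0.27) and fell in HCC1806 (-2.37). CXCR5, a chemokine receptor gene, was at 1370 and 1301 with JQ1, against 3.48e-08 with DMSO and 218 with GSK2801, so that no fold is given. It overlaps BCL9L on the opposite strand, and in the other lines it lay between 964 and 2768. ENTPD3, an ectonucleotidase gene, was at 640 and 929 with JQ1, against 68.6 and 119 without it, but its JQ1 call was lost without the DMSO, the JQ1 or the JQ1+GSK2801 library (limma adjusted p = 0.0515, 0.0524 and 0.0507). FSTL3 and the transporter gene SLC16A12 lost their JQ1 calls without any of the 4 MDAMB231 libraries (limma adjusted p 0.167 to 0.237 and 0.0691 to 0.143).

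The most negative differences held genes that were hardly detected elsewhere, which limits the comparison. FAT3, B3GALT5, SORCS3 and LINC02085 were listed at 0 in most SUM159 and HCC1806 libraries and did not exceed 3.20 in any, and RIMS2 did not exceed 16.4. CA2, a carbonic anhydrase gene that was measurable in all lines, was at 22.8 and 13.3 with JQ1, against 118 and 105 without it (-2.60 ± 0.27), while it rose in HCC1806 (1.27) and did not pass in SUM159 (0.20). PLCB4, a phospholipase gene, was at 31.0 and 36.7 with JQ1, against 258 and 166 without it (-2.58 ± 0.34), with HCC1806 at 0.85, which did not pass. GNAO1, a G protein subunit gene, was at 46.5 and 33.9 with JQ1, against 150 and 114 without it, and rose in HCC1806 (2.89). Its JQ1 call was lost without the GSK2801 or the JQ1+GSK2801 library (limma adjusted p = 0.053 and 0.051).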

How the data were processed

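RNA-seq of 12 libraries was used, 4 of them MDAMB231. Per the submitters' processing notes the tools were STAR 2.4 and Salmon 0.60 with genome build hg38. The deposited signal is 1 value per gene symbol, estimated reads that the authors scaled, as the files' labels say. The upper quartile is the same in every library, and how it was set is not given in the sources used here. Of 28539 entries, 27 symbols turned into dates were left out. Between 67.2% and 69.3% of values above 0 were whole multiples of 1 read (tolerance 0.02), too few for a count test, so log2(value + 1) was fitted with limma 3.58.1 in R 4.3.3 with a variance trend. The fit had a line term and line-specific JQ1 and GSK2801 terms (3 residual and 4.95 prior degrees of freedom). Genes needed a mean of at least 10 over the MDAMB231 libraries. Depth was 24200000 to 46800000 estimated reads over the 12 libraries. Coordinates are from an annotation of the same build, matched by symbol for 12861 tested genes (98.3%).

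The 15 rises and 15 falls named are moved and passing genes ranked by the smaller of both absolute pair ratios. Also named are the markers UNC5B, MKI67 and L1CAM, members of 33 gene lists, and the 10 largest differences each way. The members and lists were chosen with earlier results of these data known. Alternatives were pseudocounts of 0.1 and 10, other filters, TMM and quantile scaling, MDAMB231 alone, no GSK2801 term, no variance trend, a test against 1.5-fold, and each library or line left out. The fit was tested on simulated data. Some members of the lists are not reported here.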

Additional observations from a re-analysis of the deposited data

Results flagged for a closer look

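Every result here has a JQ1 effect in MDAMB231 that differed from the mean JQ1 effect of SUM159 and HCC1806 in the limma interaction contrast at an adjusted p below 0.05. JQ1 dose and, for HCC1806, medium differ with the line. Values are differences in log2 fold change, MDAMB231 minus the other lines.

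In the cell cycle lists 44 mitosis genes and 42 replication genes had a more negative effect in MDAMB231, and MKI67 differed by -1.51. The MKI67 difference from SUM159 alone did not pass (-1.43, limma adjusted p = 0.064). Of the other markers, UNC5B differed by 2.62 and L1CAM by -2.01.

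CXCR5 and HIST2H4B were in effect at 0 in at least 1 library without JQ1, so their differences (6.47 and 4.16) are set by the pseudocount of 1 and are not sizes of effect. With a pseudocount of 10 HIST2H4B had 1.05 (limma adjusted p = 0.112), and with 0.1 CXCR5 had 8.14 (limma adjusted p = 0.0562). The near-identical copy HIST2H4A, which can trade reads with HIST2H4B, differed the other way (-2.28, limma adjusted p = 0.0074). The HIST2H4B difference therefore cannot be read as a larger rise of these copies in MDAMB231.

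Among the other rises in MDAMB231 the difference was 4.14 for SUSD2, 3.3 for MUC1, 3.3 for NDRG4, 3.25 for FSTL3, 3.2 for CPA4, 3.15 for ENTPD3 and 3.14 for SLC16A12. It was 2.97 for AQP3, 2.59 for LYRM9, 2.06 for VASN, 1.67 for SMIM14, 1.62 for BSN, 1.52 for TXNIP and 1.1 for CLU. AQP3 rose in SUM159 too (2.27). SMIM14 rose in HCC1806 too (2.85), and the difference from that line did not pass (0.28, limma adjusted p = 0.42). The FSTL3 difference from SUM159 alone did not pass (2.74, limma adjusted p = 0.115). DPYSL3 rose less than in the other lines (-2.58).

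Among falls the difference was -6.07 for ZACN, -5.23 for RIMS2, -4.69 for SORCS3, -4.44 for MIR137HG, -3.87 for FAT3, -3.86 for B3GALT5, -3.66 for LINC02085, -3.42 for GNAO1, -3.39 for PLCB4 and -3.34 for CA2. It was -3.31 for FAM24B, -3.18 for MYCT1, -2.51 for KCNQ3, -2.43 for ADAMTS6 and -1.77 for LINC00707. ZACN was uneven in HCC1806, at 157 and 200 with JQ1, against 5.83 with DMSO and 89.0 with GSK2801. Its locus also overlaps GALR2, EXOC7 and SRP68. KCNQ3 fell in SUM159 too (-3.32), from which it did not differ (-0.31, limma adjusted p = 0.62), and did not exceed 1.14 in HCC1806. In the other lines MYCT1 did not exceed 3.52 and MIR137HG 12.9, which limits the comparison. The same limit holds for FAT3, B3GALT5, SORCS3, LINC02085 and RIMS2, which were hardly detected there. ACSL5 (3.2) and IL7R (2.45) fell less than in the mean of the other lines. The IL7R difference from SUM159 alone did not pass (1.26, limma adjusted p = 0.054).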

How the results depend on the processing

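With 1 library per treatment, the error behind the p-values is the departure from additive effects, and not the spread between cultures. Leaving out an MDAMB231 library leaves 1 pair. The count of genes higher with JQ1 then ranged from 1858 to 2595 and of genes lower from 2242 to 2781. Differences from the mean of the other lines ranged from 650 to 1507 more positive and 501 to 1166 more negative, those from SUM159 from 784 to 1467 and 475 to 967, and those from HCC1806 from 767 to 1420 and 758 to 1361.

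Tested against a 1.5-fold change, 956 genes were higher and 1024 lower. More positive and more negative differences then numbered 346 and 168 for the mean, 442 and 136 for SUM159, and 374 and 249 for HCC1806. Replication genes lower were 27, and differing mitosis and replication genes 9 and 18. Genes more negative than in SUM159 numbered 2497 with quantile scaling and 1006 with no variance trend. The cause was not tested.

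Without the block for GSK2801, 3205 genes were higher and 3753 lower. Under TMM scaling 50.6% of calls were lower, against 53.6%, and the median of all genes moved by less than 0.1.

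Of the named genes' values under these settings, 0 reversed direction; 22 JQ1 calls and 39 difference calls were lost. The JQ1 calls lost were of FSTL3, SLC16A12, ENTPD3 and GNAO1. The difference calls lost were of FSTL3, ENTPD3, MKI67, L1CAM, MIR137HG, CXCR5, SORCS3, B3GALT5, LINC02085, ZACN and HIST2H4B. Of counts within lists, 905 stayed within 1.5 times and 183 did not.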

Other observations

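Of 29 EGF family ligands and receptor tyrosine kinases, 9 rose and 6 fell (31% and 20.7%, against 26.2% and 30.3% of all tested genes). EGFR, the receptor of EGF, was at 32867 with JQ1 and 38831 with JQ1+GSK2801, against 19349 with DMSO and 23232 with GSK2801 (log2 fold change 0.75 ± 0.11, limma adjusted p = 0.00064), and MET, the receptor of hepatocyte growth factor, was at 7152 and 5143 with JQ1, against 10592 and 9620 without it (-0.73 ± 0.17). The ligand gene NRG1 was at 564 and 385 with JQ1, against 1554 and 1288 without it (-1.60 ± 0.16), while NRG2 was at 73.0 and 65.4 with JQ1, against 4.52 and 11.4 without it. The EGFR rise differed from the other lines (difference 1.06, limma adjusted p = 0.0016), in which its fold change was -0.43 in SUM159 and -0.20 in HCC1806.

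Of 38 Notch and Wnt genes, 9 rose and 7 fell (23.7% and 18.4%). NOTCH3, a Notch receptor gene, was at 57.5 and 98.0 with JQ1, against 18.1 and 26.0 without it (1.75 ± 0.23), and HES1, a Notch target, at 30.1 and 21.3 with JQ1, against 79.1 and 83.6 without it (-1.64 ± 0.18). SLC7A11, a cystine transporter gene, was at 7400 and 3499 with JQ1, against 9520 and 10597 without it (-0.98 ± 0.27).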
